A study of Mus musculus with 10 samples.

Results

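The BCL2 family genes described here are 3 that code for survival proteins (Bcl2, Bcl2l1 and Mcl1), 5 that code for BH3-only proteins (Bcl2l11, Bmf, Bad, Bid and Bik) and 2 that code for the pore-forming effectors (Bax and Bak1). They were taken by symbol from the gene tables of 10 mouse RNA-seq libraries, in which each symbol stood on 1 row, and make up 10 of the 22923 gene symbols kept. In short, Bcl2l11 was 24.5-fold higher in thymocytes than in pre-B cells, and Bmf was 10.1-fold higher in small than in large pre-B cells. Mcl1 was higher in quiescent than in cycling cells of both lineages and highest in granulocytes. No member passed a test between genotypes, where 0.036% of all genes did over the lymphoid and 0.0512% over all populations.

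BCL2 family proteins decide at the mitochondrial outer membrane whether a cell survives or undergoes apoptosis. BAX and BAK1 form the pores that release cytochrome c, the survival proteins BCL2, BCL-XL (from Bcl2l1) and MCL1 hold them in check, and the BH3-only proteins, among them BIM (from Bcl2l11), bind the survival proteins through a short helix, the BH3 domain, or act on the effectors directly. In mice, BIM is needed for the deletion of self-reactive thymocytes, BCL-XL sustains CD4+CD8+ thymocytes, in which BCL2 is low, and MCL1 is needed for lymphoid progenitors and neutrophils.

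The BH3 helix is the feature the 3 classes share, and the sequences below show its core in members that act in opposite directions. A core of 6 codons was searched for in the coding sequence of each member. It was a leucine codon, 3 further codons, a glycine, alanine or serine codon, and an aspartate codon. The fourth codon had to code for isoleucine, alanine, valine or methionine. The codon after the core had to code for glutamate, aspartate, glutamine, glycine or asparagine. Each of the 10 coding sequences held 1 match to this search. The fifth core codon was glycine in 8 members, alanine in 1 (Bmf) and serine in 1 (Bad). The 39 bases around the core, 5′ to 3′ on the coding strand, come from the GENCODE vM21 transcripts and build GRCm38 (mm10), with the 6 core codons in capitals.
Mcl1 (chr3:95659424-95659462, plus strand): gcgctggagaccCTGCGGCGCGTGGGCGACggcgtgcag
Bcl2l1 (chr2:152829697-152829735, minus strand): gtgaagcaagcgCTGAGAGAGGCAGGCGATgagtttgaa
Bcl2l11 (chr2:128147138-128147176, plus strand): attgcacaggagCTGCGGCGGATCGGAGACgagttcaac
Bmf (chr2:118545100-118545138, minus strand): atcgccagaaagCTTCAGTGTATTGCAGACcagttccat
Bad (chr19:6950780-6950818, plus strand): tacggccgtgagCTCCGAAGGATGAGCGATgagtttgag
Bid (chr6:120897289-120897327, minus strand): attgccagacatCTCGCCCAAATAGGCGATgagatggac
Bax (chr7:45465997-45466035, minus strand): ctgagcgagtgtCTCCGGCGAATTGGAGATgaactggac
Bak1 (chr17:27022531-27022569, minus strand): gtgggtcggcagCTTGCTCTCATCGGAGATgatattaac
The places of leucine and aspartate were set by the search, as was the choice of glycine, alanine or serine at the fifth codon. Glycine stood there in the survival genes Mcl1 and Bcl2l1, the effectors Bax and Bak1, and the BH3-only genes Bcl2l11 and Bid.

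The libraries came from C57bl/6 mice of 4 weeks. Control mice were Dyrk1a flox/flox, Mx1-Cre-, and CKO mice were Dyrk1a -/-, Mx1-Cre+, where Mx1-Cre is a Cre recombinase under an interferon-inducible promoter that is active in many cell types and for which the labels name no inducer. DYRK1A is a protein kinase, studied in lymphoid cells for its part in leaving the cell cycle. From a pool of 2 mice of each genotype, 5 populations were sequenced as 1 library each: cycling and quiescent CD4+CD8+ thymocytes from the thymus, and large pre-B cells, small pre-B cells and mature granulocytes from the bone marrow. Large pre-B cells are the cycling and small pre-B cells the resting stage of the same lineage. There was therefore no replication between animals, every p-value below measures only the spread between libraries of 2 pools, and depth per library is not known.

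The values are FPKM, which are relative to transcript length and library, so levels can be compared between genes. In bulk libraries, fewer cells of a type and less RNA per cell cannot be told apart. Each population carried the markers of its label: the 8 thymocyte markers summed to 2507 to 3922 FPKM in thymocytes, the 7 pre-B markers to 1867 to 4886 FPKM in pre-B cells, and the 6 granulocyte markers found to 53579 and 62141 FPKM in granulocytes. The libraries labelled quiescent differed in 6 cycling markers, which summed to 23.8 FPKM in control and 316 FPKM in CKO quiescent thymocytes and to 272 and 621 FPKM in small pre-B cells, against 1177 to 1549.9 FPKM in the 4 cycling libraries. The CKO small pre-B library also held more of the markers of other cells than the control, with plasmacytoid dendritic markers at 219.7 against 49.0 FPKM, NK and innate markers at 55.4 against 6.23 FPKM and monocyte and macrophage markers at 49.9 against 7.57 FPKM. The control and CKO granulocyte libraries held monocyte and macrophage markers at 2694 and 2229 FPKM and cycling markers at 466 and 481 FPKM. The part of these markers in the differences of granulocytes was not tested. Dyrk1a itself lay at 31.2 to 37.4 FPKM in control and 34.4 to 44.7 FPKM in CKO libraries, higher in CKO in 5 of 5 populations, which checks nothing, since the labels do not name the deleted exons. The Y-linked gene Ddx3y lay at 0 to 0.039 FPKM in control and 7.26 to 16.7 FPKM in CKO libraries, so genotype and the sex make-up of the pools cannot be told apart.

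Among the survival genes, Mcl1 was the most abundant in every library. The control and CKO libraries held Mcl1 at 168 and 219 FPKM in cycling thymocytes, 328 and 447 FPKM in the quiescent ones, 75.5 and 81.7 FPKM in large pre-B cells, 189 and 179.8 FPKM in small pre-B cells, and 564 and 810.1 FPKM in granulocytes. Granulocytes were highest, quiescent thymocytes next and large pre-B cells lowest, and only the ranges of cycling thymocytes and small pre-B cells overlapped between neighbours in this order. Bcl2l1 stood at 51.1 and 43.4 FPKM in control and CKO cycling thymocytes, 75.5 and 52.8 FPKM in the quiescent ones, 44.9 and 39.8 FPKM in large pre-B cells, 104 and 63.7 FPKM in small pre-B cells, and 30.3 and 25.8 FPKM in granulocytes. Small pre-B cells and quiescent thymocytes overlapped at the top of this order, cycling thymocytes overlapped large pre-B cells below them, and granulocytes lay below every lymphoid library. Bcl2 was low throughout and reached 1 FPKM in 7 of the 10 libraries. Its levels were 3.35 and 2.15 FPKM in control and CKO cycling thymocytes, 4.24 and 2.51 FPKM in the quiescent ones, 2.12 and 2.34 FPKM in large pre-B cells, 0.468 and 1.12 FPKM in small pre-B cells, and 0.826 and 0.795 FPKM in granulocytes. The thymocyte and large pre-B ranges overlapped, and small pre-B cells and granulocytes lay below them. Bcl2 overlaps 3 other annotated genes, 1 of them on the opposite strand, and with the strand setting not given in the sources used here their reads cannot be told apart.

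Bcl2l11, which codes for the BH3-only protein BIM, ranged 47-fold, from 8.4 to 395 FPKM, the widest ratio among members detected in every library. It stood at 184 and 233 FPKM in control and CKO cycling thymocytes and at 286 and 395 FPKM in the quiescent ones, against 8.4 and 9.99 FPKM in large pre-B cells, 12.3 and 14.2 FPKM in small pre-B cells and 11.8 and 10.2 FPKM in granulocytes. The lowest thymocyte library thus lay far above the highest of the other 6, and no neighbours in the order of populations overlapped. Bmf, whose protein binds the survival proteins as BIM does, followed another order. Its levels were 14.3 and 17.5 FPKM in control and CKO cycling thymocytes, 33.1 and 33.2 FPKM in the quiescent ones, 4.79 and 4.65 FPKM in large pre-B cells, 55.2 and 39.8 FPKM in small pre-B cells, and 6.54 and 7.4 FPKM in granulocytes. Small pre-B cells were highest, large pre-B cells lowest, and again no neighbours overlapped.

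Bid, whose protein is cleaved by caspase-8 and links death receptors to mitochondria, was highest in granulocytes at 77.8 and 73.8 FPKM in control and CKO. In lymphoid cells Bid stood at 21.1 and 17.9 FPKM in cycling thymocytes, 12.4 and 8.64 FPKM in the quiescent ones, 17.5 and 19.6 FPKM in large pre-B cells, and 10.5 and 13.8 FPKM in small pre-B cells. The cycling population was above the quiescent one in each lineage, and the lineages overlapped at both stages. Bad, whose protein is held inactive by phosphorylation, ranged only from 9.22 to 12.2 FPKM over the 8 lymphoid libraries and reached 21.6 and 20.1 FPKM in granulocytes, with an overlap between neighbours only for cycling thymocytes and small pre-B cells. Bik was low throughout. It lay at 1.64 and 2.96 FPKM in control and CKO cycling thymocytes and at 1.02 and 3.68 FPKM in the quiescent ones. In pre-B cells it lay at 0.402 to 0.623 FPKM, and it was listed at 0 in both granulocyte libraries. Bik thus reached 1 FPKM only in the 4 thymocyte libraries, and its order within thymocytes was not the same in the genotypes. Bid shares its interval with Bcl2l13 on the opposite strand and Bad with Gpr137, and such reads cannot be told apart without the strand setting.

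The effectors differed in which populations stood at the ends of their orders. Bax stood at 41.1 and 47.7 FPKM in control and CKO cycling thymocytes, 65.5 and 69.5 FPKM in the quiescent ones, 42.8 and 51.6 FPKM in large pre-B cells, 47.5 and 44.3 FPKM in small pre-B cells, and 19.8 and 21.4 FPKM in granulocytes. Quiescent thymocytes were highest and granulocytes lowest, while the ranges of the 3 remaining populations overlapped. Bak1 stood at 24.4 and 23.7 FPKM in control and CKO cycling thymocytes, 18.4 and 19.8 FPKM in the quiescent ones, 36.9 and 44.3 FPKM in large pre-B cells, 33.3 and 37.3 FPKM in small pre-B cells, and 68.9 and 74.4 FPKM in granulocytes. Granulocytes were highest and quiescent thymocytes lowest, with an overlap only between the pre-B populations. The ratio of Bak1 to Bax was 0.28 to 0.862 in the lymphoid libraries and 3.49 and 3.47 in the control and CKO granulocytes. Bax overlaps 1 annotated gene on its own strand and Bak1 overlaps Ggnbp1 on the opposite strand.

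**Figure D1:**
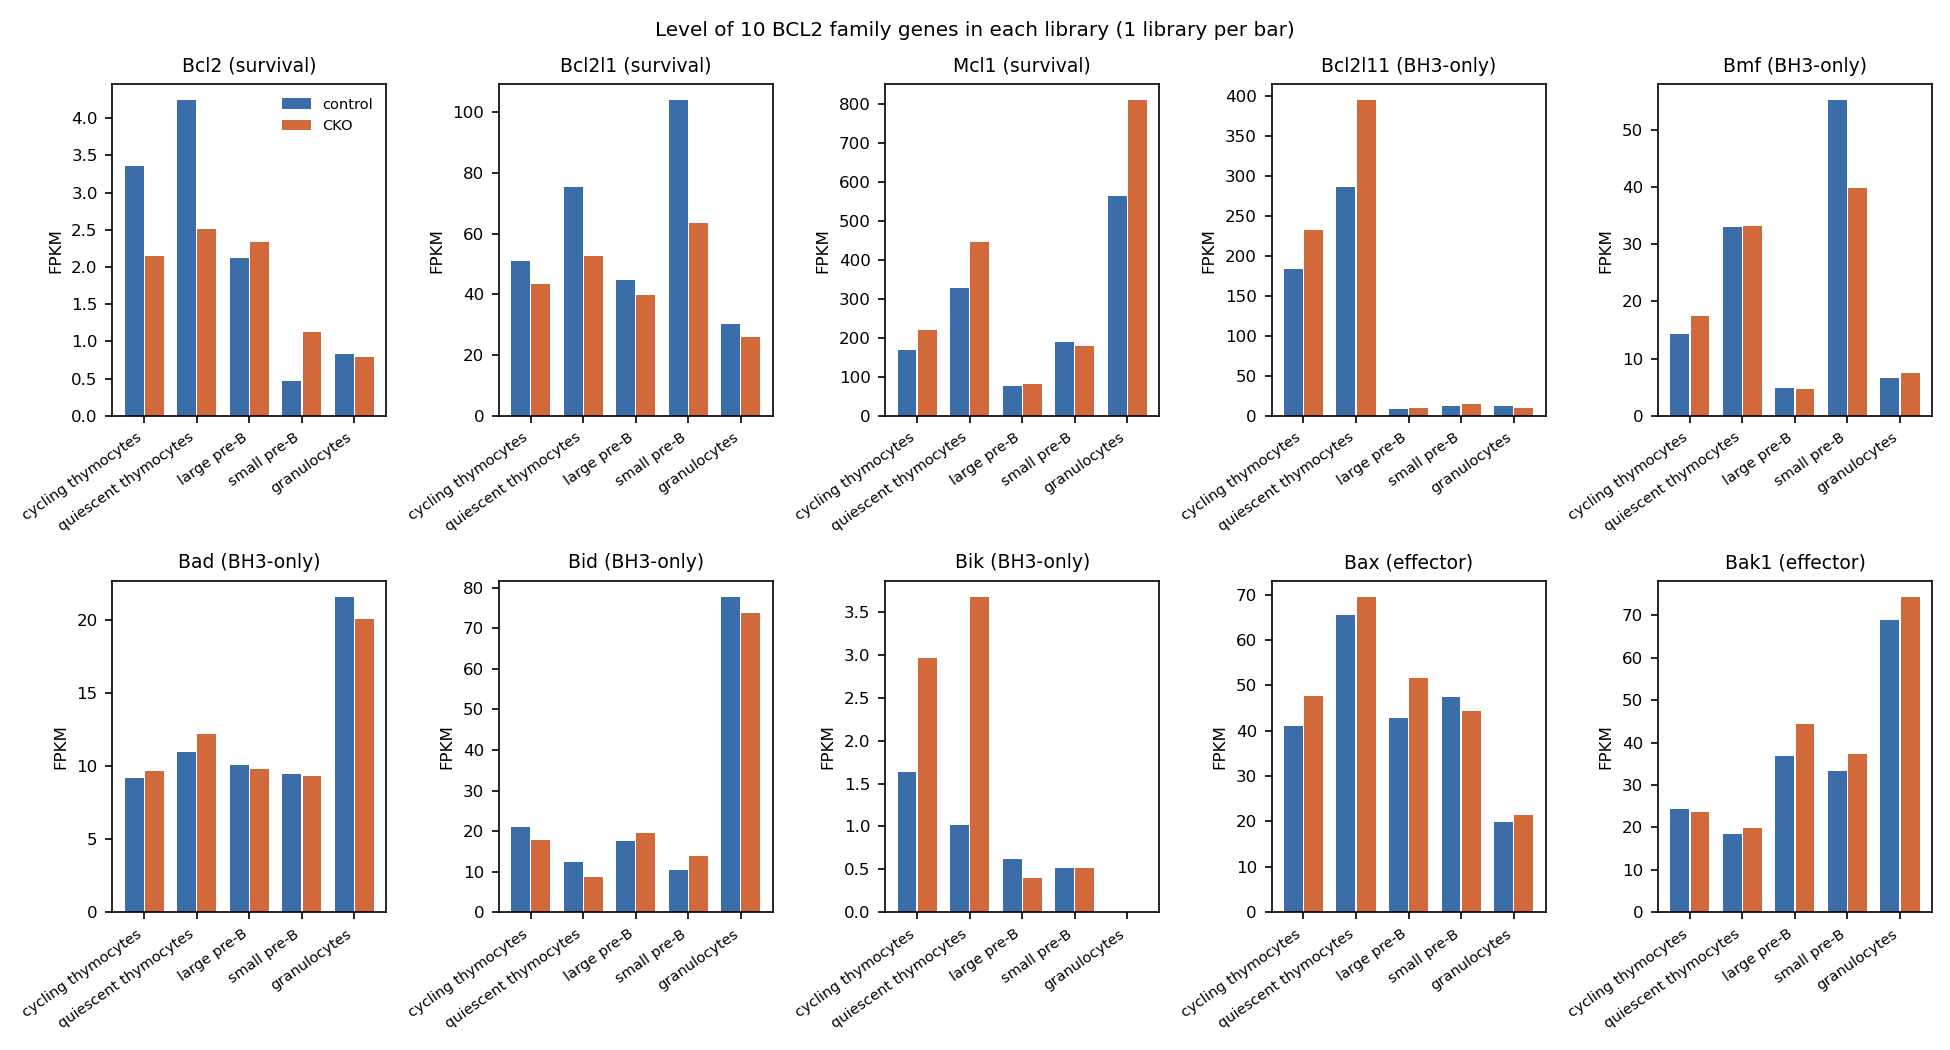
Level in FPKM (vertical axis, linear from 0, a separate scale per panel) of each of the 10 genes in the 5 populations, with 1 bar per library, blue for control and orange for CKO. Bcl2l11 reaches 184 to 395 FPKM in the 4 thymocyte libraries and at most 14.2 FPKM elsewhere, and Bmf is highest in the small pre-B libraries at 55.2 and 39.8 FPKM.

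The make-up of the family also differed between populations. The 10 genes summed to 244 FPKM in control and 264 FPKM in CKO large pre-B cells, the lowest sums, and to 1044 FPKM in CKO quiescent thymocytes and in CKO granulocytes. The survival genes held 42.9% of the sum in both cycling thymocyte libraries, 48.8% and 48.1% in control and CKO quiescent thymocytes, 50.3% and 46.9% in large pre-B cells, 63.5% and 60.6% in small pre-B cells, and 74.3% and 80.1% in granulocytes. The BH3-only genes held 41.1% to 45.6% in thymocytes and 10.7% to 19.2% in the other populations. Large pre-B cells stood out by the share of their effectors, at 32.7% and 36.3% of the sum against 8.55% to 20.2% elsewhere. In FPKM the effectors were not set apart, at 79.7 and 95.9 there against 65.5 to 95.8 elsewhere. The high share thus went with the low sum of the 10 genes. Bcl2l11 was the most abundant member in both cycling thymocyte libraries and Mcl1 in the other 8. Mcl1 made up 61.6% to 96.8% of the summed survival genes, lowest in control large pre-B cells and highest in CKO granulocytes. The ratio of Bcl2l11 to Bmf was 12.9 and 13.3 in control and CKO cycling thymocytes, 8.64 and 11.9 in quiescent thymocytes, 1.75 and 2.15 in large pre-B cells, and 0.223 and 0.356 in small pre-B cells. Bmf thus exceeded Bcl2l11 in small pre-B cells only. These shares describe transcripts within 1 library each and were not tested. They cover the 10 members only and leave out other BCL2 family genes described below, such as Bbc3 and Pmaip1. In control and CKO quiescent thymocytes Bbc3 lay at 63.5 and 197 FPKM and Pmaip1 at 23.2 and 60.8 FPKM.

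**Figure D2:**
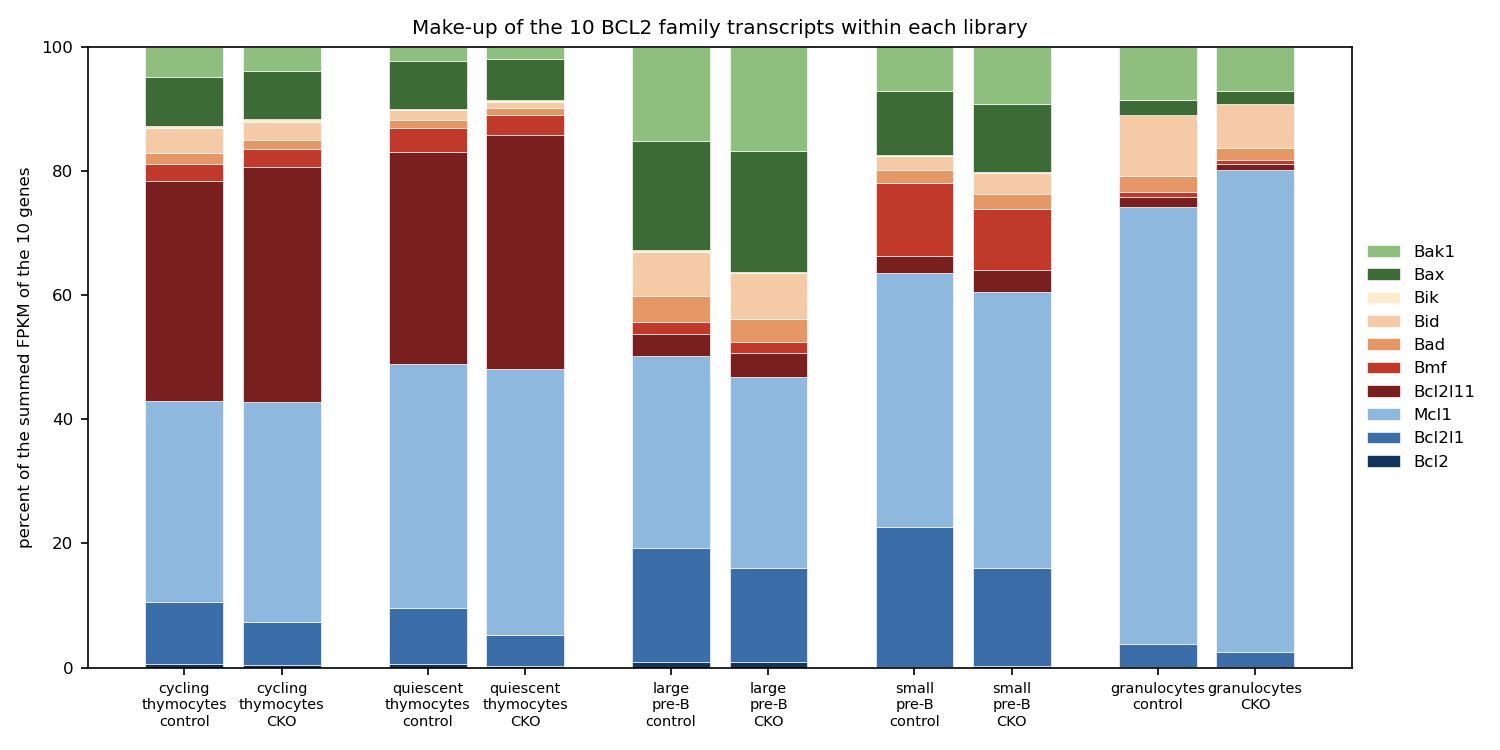
Share in percent (vertical axis) of each of the 10 genes in their summed FPKM, with 1 stacked bar per library: survival genes in blue, BH3-only genes in red and orange, effectors in green. The dark red Bcl2l11 segment is large only in the 4 thymocyte bars, the light blue Mcl1 segment fills most of the granulocyte bars, and the green effector segments are largest in large pre-B cells.

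Bcl2l11 and Bmf, the members with the largest difference between lineages and between pre-B stages, lie on chromosome 2 at 128126038 to 128162547 (plus strand) and 118528757 to 118549687 (minus strand) in GENCODE vM21, and no other annotated gene overlaps either. The 250 bases before a start site of each are shown as RefSeq gives them for build GRCm38.p6, with a forkhead motif (GTAAACA) in Bcl2l11 and an E-box (CAGCTG) in Bmf in capitals.
Bcl2l11 (chr2:128125788-128126037, plus strand): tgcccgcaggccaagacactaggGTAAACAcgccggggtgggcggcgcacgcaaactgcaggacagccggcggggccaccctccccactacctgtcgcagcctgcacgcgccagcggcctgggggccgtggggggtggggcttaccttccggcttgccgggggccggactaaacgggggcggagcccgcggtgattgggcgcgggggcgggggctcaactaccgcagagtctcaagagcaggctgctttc
Bmf (chr2:118549687-118549936, minus strand): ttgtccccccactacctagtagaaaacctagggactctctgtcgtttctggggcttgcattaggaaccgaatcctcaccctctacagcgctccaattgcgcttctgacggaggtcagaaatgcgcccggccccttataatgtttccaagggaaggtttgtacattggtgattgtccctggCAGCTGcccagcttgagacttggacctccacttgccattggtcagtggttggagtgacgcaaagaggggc
RefSeq entries were found for 9 of the 10 members, 15 upstream windows in all, and Bik had none. Searched on both strands, GTAAACA occurred in 1 of the 15 windows and in 3.17% of all 32851 windows of that length, and CAGCTG in 3 of the 15, all of Bmf, and in 13% of all. These were chosen for display from 13 motifs after the matches were seen. Of the others, GGGCGG matched 7 of the 15 windows (32.7% of all), CCAAT 5 (33.8%), TTTGAA 3 (16%), AGGTCA 2 (14%), AACGG 2 (14.5%), CACGTG 1 (6.02%) and TTTCGCGC 1 (0.256%). No window held TATAAA (12.4% of all), CCGGAAGT (2.88%), TGANTCA (6.75%), or the NF-kB motif (0.14%). A match describes letters in the window and is not a site of binding.

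The comparison of quiescent with cycling thymocytes asks which members differ when CD4+CD8+ cells leave the cycle. Mcl1, Bmf, Bcl2l11 and Bax were higher and Bid was lower in quiescent thymocytes, in both the control and the CKO pair. On the log2(FPKM + 1) scale, Mcl1 rose by 0.99 (SE 0.10, adjusted p = 0.0062), Bmf by 1.02 (SE 0.15, adjusted p = 0.0079), Bcl2l11 by 0.69 (SE 0.10, adjusted p = 0.0074) and Bax by 0.60 (SE 0.12, adjusted p = 0.015), by limma with Benjamini-Hochberg adjustment over 11126 genes. Bid fell by 0.84 (SE 0.13, adjusted p = 0.0081). Thus 5 of the 10 members passed, 4 higher and 1 lower, where 44.9% of all genes tested passed (25.2% higher, 19.7% lower), so the share is near the background. The median difference of the members was 0.34, against 0.06 over all genes. Bcl2l1 differed by 0.42 (adjusted p = 0.082), Bad by 0.27 (0.098), Bcl2 by 0.21 (0.3), Bik by -0.07 (0.79) and Bak1 by -0.32 (0.054), and none of these passed.

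The fit gave each lineage its own effect and used 2 residual degrees of freedom, so the calls rest on 2 pairs of libraries per lineage. Leaving out a thymocyte pair leaves a single pair, and the spread then comes from the pre-B pairs. The calls of such fits are therefore not given. Over the fits that left out a pair, Mcl1 rose by 0.96 to 1.03, Bmf by 0.89 to 1.15, Bcl2l11 by 0.63 to 0.76 and Bax by 0.53 to 0.66. Bid differed by -0.97 to -0.72. The ends of these ranges are the differences of the control and the CKO thymocyte pair themselves, so they add no further check. The cycling markers of the quiescent libraries differed between the pairs as given above, and their part in these differences was not tested.

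In the bone marrow, small pre-B cells were compared with large pre-B cells in the same fit. Bmf moved most: it went from 4.79 to 55.2 FPKM in control and from 4.65 to 39.8 FPKM in CKO, 11.5-fold and 8.55-fold. The rise was 3.07 on the log2(FPKM + 1) scale (SE 0.15, adjusted p = 0.0018, limma). Mcl1 rose by 1.22 (SE 0.10, adjusted p = 0.0025), Bcl2l1 by 0.93 (SE 0.16, adjusted p = 0.0091) and Bcl2l11 by 0.48 (SE 0.10, adjusted p = 0.014). The rises thus included survival genes and BH3-only genes together. Bcl2 fell by 0.87 (SE 0.15, adjusted p = 0.0096) and Bid fell by 0.58 (SE 0.13, adjusted p = 0.017). Bcl2 did so at levels of at most 2.34 FPKM. Of the 10 members 6 passed, 4 higher and 2 lower, against 47.4% of all genes (25.6% higher, 21.8% lower), and their median was -0.01 against 0.04. The effectors did not pass, with differences of -0.03 for Bax (adjusted p = 0.84) and -0.19 for Bak1 (0.17), nor did Bad at -0.07 (0.6) or Bik at 0.01 (0.98).

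Leaving out a pre-B pair leaves a single pair, and the spread then comes from the thymocyte pairs. The calls of such fits are therefore not given. Over the fits that left out a pair, Bmf rose by 2.85 to 3.28, Mcl1 by 1.13 to 1.32, Bcl2l1 by 0.66 to 1.19 and Bcl2l11 by 0.46 to 0.5. Bcl2 differed by -1.09 to -0.66 and Bid by -0.69 to -0.47. Here too the ends of the ranges are the differences of the control and the CKO pair themselves. With a block for lineage alone, 3 members passed (Bmf, Mcl1 and Bcl2l1). The rise of Bmf was 3.28 in control and 2.85 in CKO cells, where the small pre-B library held more of the cycling, plasmacytoid dendritic, NK and monocyte markers than in control. Monocyte and macrophage markers also differed between the stages, at 239 and 90.9 FPKM in control and CKO large pre-B cells against 7.57 and 49.9 FPKM in small pre-B cells. The part of these markers in the differences between stages was not tested.

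The effect of the state differed between lineages for 2 of the 10 members (1 higher, 1 lower in thymocytes minus pre-B cells), where 6.84% of all genes tested did (3.62% higher, 3.22% lower). Bmf rose more in pre-B cells than in thymocytes, with a difference (thymocytes minus pre-B cells) of -2.05 (SE 0.21, adjusted p = 0.018, limma). Bcl2 differed by 1.08 (SE 0.21, adjusted p = 0.048): the pairwise values were 0.27 and 0.15 in control and CKO thymocytes, and -1.09 and -0.66 in pre-B cells. For both genes the 2 pairs of one lineage lay apart from the 2 of the other. Bax, at 0.63 (adjusted p = 0.092), and Bcl2l1, at -0.51 (0.21), did not pass. The median over the members was -0.10, against 0.01 over all genes. With no filter or a block per lineage only, neither gene passed. Bcl2 also did not pass with a pseudocount of 0.1 or after rescaling. Each fit without 1 of the 4 pairs left 1 pair in a lineage, and its calls are not given. The differences in those fits were -2.26 to -1.83 for Bmf and 0.87 to 1.3 for Bcl2.

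**Figure D3:**
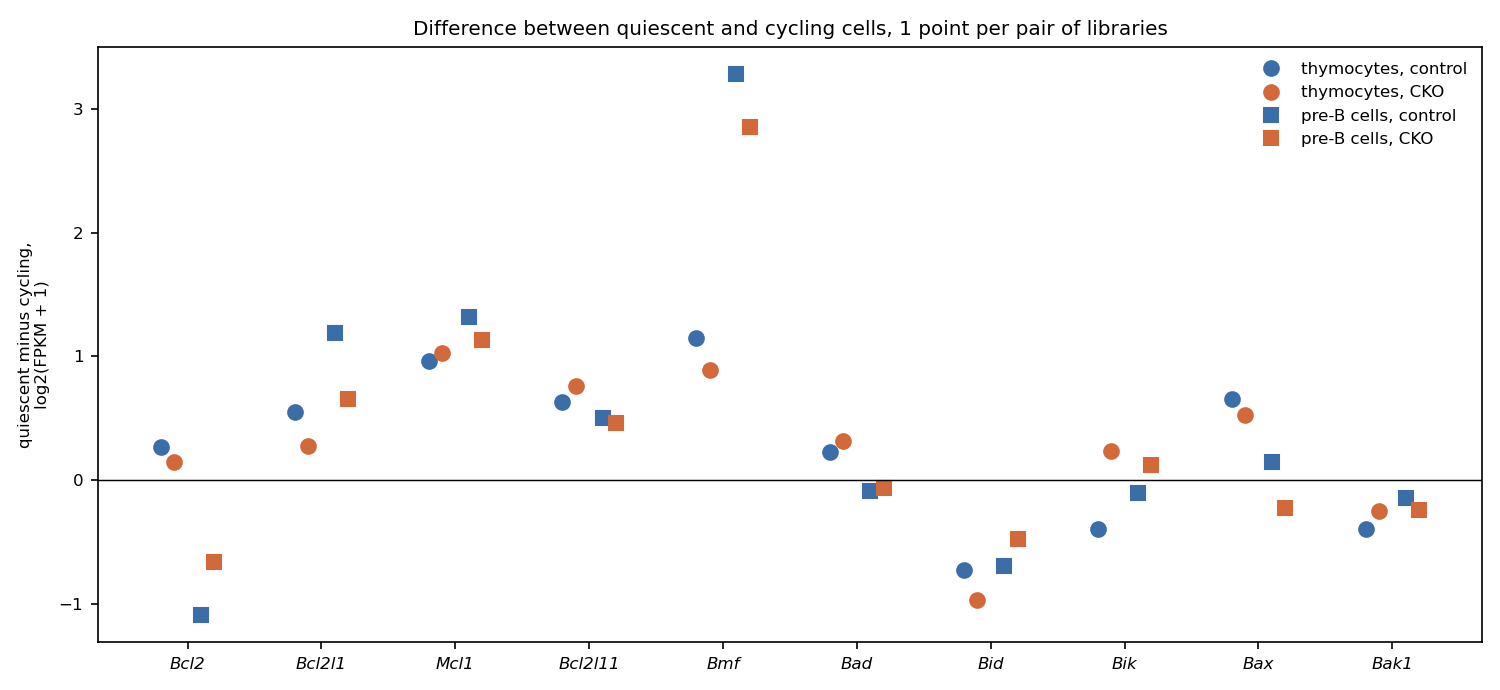
Difference between quiescent and cycling cells on the log2(FPKM + 1) scale (vertical axis) for each gene, with circles for thymocytes, squares for pre-B cells (small minus large), blue for control and orange for CKO, 1 point per pair of libraries. The pre-B points of Bmf, at 3.28 and 2.85, lie far above its thymocyte points at 1.15 and 0.89, and Mcl1 lies between 0.96 and 1.32 in all 4 pairs.

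Thymocytes and pre-B cells were compared with state and genotype as blocks. Bcl2l11 was higher in thymocytes in each of the 4 pairs, by 4.30 to 4.71 on the log2(FPKM + 1) scale, and the fitted difference was 4.46 (SE 0.10, adjusted p = 1.7e-05, limma). Mcl1 was higher by 1.16 (SE 0.13, adjusted p = 0.0011) and Bik by 1.06 (SE 0.25, adjusted p = 0.013), while Bak1 was lower, with a difference of -0.79 (SE 0.09, adjusted p = 0.0013). Thus 4 of the 10 members passed, 3 higher and 1 lower, where 63.8% of all genes tested did (30.8% higher, 33% lower). Their median was 0.38, against -0.05 over all genes. Bik passed the filter on low values only through its thymocyte libraries and had to differ. Its call was lost without the quiescent CKO pair. Under a filter of 5 FPKM it was not tested, since it reached at most 3.68 FPKM. Bcl2 differed by 0.74 (adjusted p = 0.085), and passed only when the cycling CKO pair was left out. Bmf had no uniform direction: it was higher in thymocytes among cycling cells, by 1.40 in control and 1.71 in CKO, and lower among quiescent cells, by -0.72 and -0.25 as thymocytes minus pre-B. Bax at 0.23 (adjusted p = 0.24), Bad at 0.10 (0.47), Bid at -0.07 (0.75) and Bcl2l1 at -0.11 (0.52) did not pass.

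Thymocyte markers bear on the level of Bcl2l11 in pre-B cells. Of the 8 thymocyte markers, 5 or 6 lay under 1 FPKM in each pre-B library, and Cd8a lay at 0.07 to 0.28 FPKM there against 348 to 675 FPKM in thymocytes. Their sum was 71.4 to 539.6 FPKM in pre-B cells, of which Rag1, a recombinase gene that both lineages use, made up most, at 65.4 to 538 FPKM. Lineage and organ cannot be told apart, since the thymocytes came from the thymus and the pre-B cells from the marrow.

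Granulocytes, short-lived cells of the innate system, were compared with the mean of the 4 lymphoid populations. Bid was higher by 2.30 (SE 0.16, adjusted p = 9.2e-06, limma over 11715 genes), Mcl1 by 1.90 (SE 0.12, adjusted p = 7.2e-06), Bak1 by 1.30 (SE 0.08, adjusted p = 4.9e-06) and Bad by 0.98 (SE 0.09, adjusted p = 3.2e-05). In mean FPKM this was 4.99-fold for Bid and 3.26-fold for Mcl1. Of the 6 lower members, Bcl2l11 differed by -2.23 (SE 0.12), Bmf by -1.32 (SE 0.14), Bax by -1.25 (SE 0.09), Bcl2l1 by -0.99 (SE 0.11) and Bcl2 by -0.77 (SE 0.21), and Bik was listed at 0. Bik passed the filter on low values only through thymocytes and had to be lower. With it, calls were made for 10 of 10 members (4 higher, 6 lower) and for 80.8% of all genes (41.3% higher, 39.5% lower), and the medians were -0.88 and -0.01. Summed over all genes, FPKM came to 830006 and 1074258 in the granulocyte and 360394 to 431868 in the lymphoid libraries. After rescaling by median ratios, which were 1.069 and 1.074 in granulocytes and 0.9561 to 1.006 elsewhere, all 10 calls were kept. The higher mean of the lymphoid libraries for Bcl2l11 came from thymocytes: granulocytes, at 11.8 and 10.2 FPKM, lay between the small and large pre-B libraries. Granulocyte Bmf, at 6.54 and 7.4 FPKM, lay above the large pre-B libraries, and granulocyte Bcl2, at 0.826 and 0.795 FPKM, within the range of the small pre-B libraries. Bcl2 lost its call without either granulocyte library and Bik without the CKO one, both alternatives chosen after seeing the data. In an F test over all 5 populations 10 of 10 members passed, as did 95.3% of all genes, with F highest for Bcl2l11 at 501.

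Genotype was compared within each population as 1 library against 1, with no test, and a gene that reached 5 FPKM in 1 of the 2 was said to differ at a 2-fold ratio. None of the 10 members differed by this rule in any population. Between 7 and 8 of them reached 5 FPKM, and the share of all genes that differed was 0.954% in cycling thymocytes, 5.26% in quiescent thymocytes, 1.84% in large pre-B cells, 6.3% in small pre-B cells and 2.33% in granulocytes. Over the 5 populations Bcl2l1 was lower in CKO in each, with log2 ratios of -0.23 in cycling and -0.51 in quiescent thymocytes, -0.17 in large and -0.70 in small pre-B cells, and -0.22 in granulocytes. The 2 most negative ratios were those of quiescent thymocytes and small pre-B cells, where the cycling markers summed to 316 in CKO against 23.8 FPKM in control and to 621 against 272 FPKM. The part of those markers was not tested. Mcl1 was higher in CKO in 4 of 5 populations, with ratios from -0.08 to 0.52, and Bcl2l11 in 4 of 5, from -0.20 to 0.46. For both genes CKO was higher in thymocytes of the 2 states. In granulocytes Mcl1 had its highest ratio, 0.52, and Bcl2l11 its lowest, -0.20. Bik had the only ratio past 2-fold, 1.21 in quiescent thymocytes, at 1.02 against 3.68 FPKM, under the minimum level.

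With population as a block, no member passed between genotypes. Over the 4 lymphoid populations 0 of 10 members passed in limma, with 2 at an unadjusted p under 0.05, and 0.036% of all genes (4 of 11126) passed, with 1867 at an unadjusted p under 0.05. These 2 were Bcl2l1, at -0.40 (SE 0.11, adjusted p = 0.23), and Bcl2l11, at 0.30 (SE 0.07, adjusted p = 0.23). Over all 5 populations 0 of 10 members passed, again with 2 at an unadjusted p under 0.05, and 0.0512% of all genes passed. Bcl2l1, lower in CKO in 5 of 5 pairs, differed there by -0.37 (SE 0.09, adjusted p = 0.2). Mcl1 differed by 0.28 (SE 0.10, adjusted p = 0.26) and was higher in 4 of 5. The median over the members was 0.08 in the lymphoid and 0.06 in the full comparison, against -0.01 over all genes in both. Whether the effect of state differed between genotypes was tested with 1 residual degree of freedom: 0 of 10 members passed in limma, 2 had an unadjusted p under 0.05, and 0.0449% of all genes passed. The 2 were Bcl2l1, whose rise was smaller in CKO by -0.40 (SE 0.13, adjusted p = 0.34), and Bmf, by -0.35 (SE 0.13, adjusted p = 0.4).

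**Figure D4:**
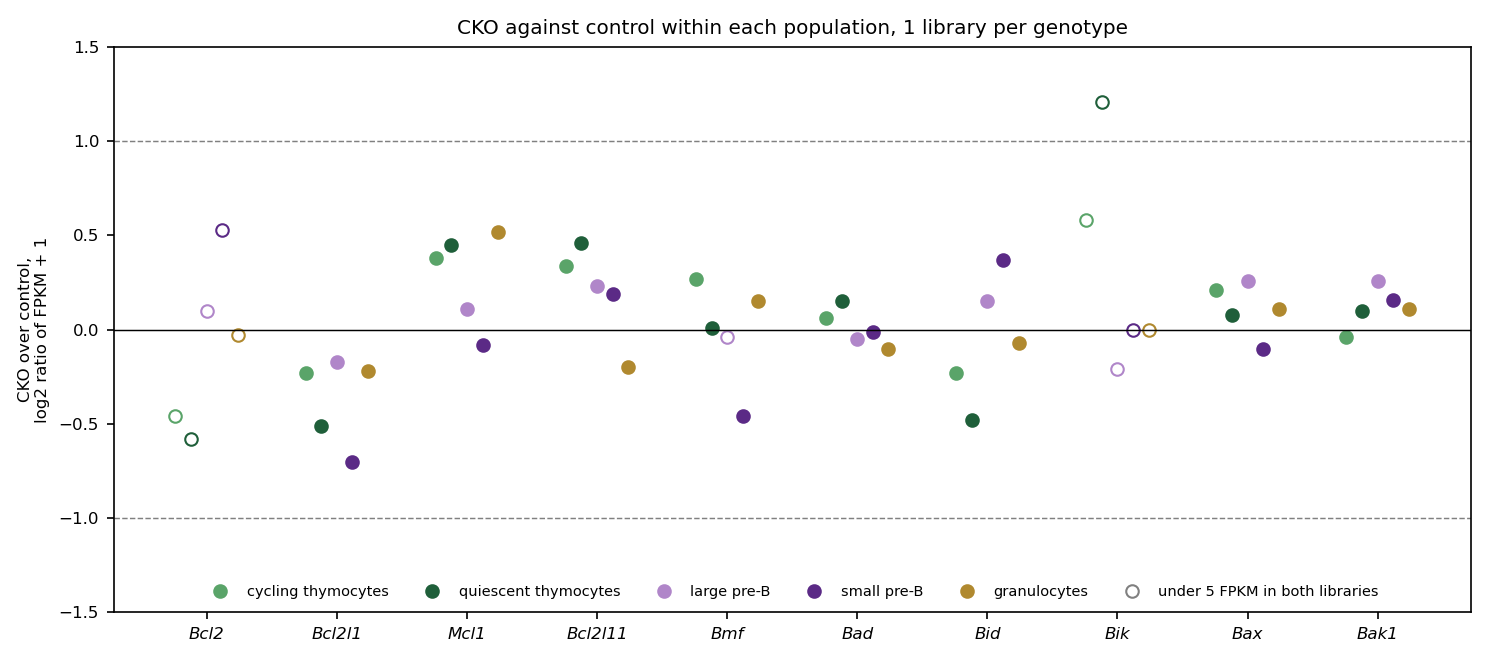
Ratio of CKO to control on the log2(FPKM + 1) scale (vertical axis) for each gene, with 1 point per population, coloured by population, and dashed lines at 2-fold. Open points mark genes under 5 FPKM in both libraries. All 5 points of Bcl2l1 lie below 0, from -0.70 to -0.17, and no filled point reaches a dashed line.

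Other genes of the intrinsic pathway were described from lists chosen with earlier results of these data known. Of 16 other BCL2 family genes, 8 were high enough to be tested in the lymphoid libraries. All 8 passed between thymocytes and pre-B cells, 4 higher and 4 lower, where 63.8% of all genes did (30.8% higher, 33% lower), with a median of -0.15 against -0.05 over all genes. Bbc3, which codes for the BH3-only protein PUMA, was higher in thymocytes by 4.10 (SE 0.16, adjusted p = 6.2e-05, limma), and Pmaip1, which codes for NOXA, by 2.89 (SE 0.25, adjusted p = 4.9e-04). Both thus lay on the same side as Bcl2l11. Bcl2l12 was lower in thymocytes, with a difference of -1.03 (adjusted p = 0.0015). Bok, which codes for a relative of BAX and BAK1 and is counted among the 8, lay at 0 to 0.16 FPKM in thymocytes and passed the filter only through pre-B cells, so that it had to be lower. Between states, 4 of the 8 passed in thymocytes (3 higher, 1 lower, median 0.08 against 0.06), where 44.9% of all genes did, and 4 in pre-B cells (3 higher, 1 lower, median 0.33 against 0.04), where 47.4% did, so both counts are near the background. Bbc3 rose in the quiescent cells of both lineages, by 1.20 (SE 0.13, adjusted p = 0.0065) in thymocytes and 1.29 (SE 0.13, adjusted p = 0.0035) in pre-B cells.

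Bbc3 also differed between genotypes within populations, with no test. Its log2 ratios of CKO to control were 1.99 in cycling thymocytes (97.2 against 23.8 FPKM), 1.62 in quiescent thymocytes (197 against 63.5 FPKM) and 1.20 in small pre-B cells (9.34 against 3.51 FPKM). CKO was above control in each of these, where no member of the 10 reached 2-fold at that level. Bbc3 was also higher in CKO large pre-B cells, at 1.19 (3.2 against 0.842 FPKM, under the minimum level). In granulocytes its ratio was 0.86 (12.3 against 6.33 FPKM). Pmaip1 had a log2 ratio of 1.35 in quiescent thymocytes (60.8 against 23.2 FPKM), and Bok one of 1.79 in large pre-B cells (19.5 against 4.93 FPKM). Across the lymphoid populations 0 of the 8 genes passed between genotypes.

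Of 14 genes of the apoptosome and caspases, 7 passed between states in thymocytes (2 higher, 5 lower, median 0.03 against 0.06) and 7 in pre-B cells (2 higher, 5 lower, median 0.01 against 0.04), near the 44.9% and 47.4% of all genes that did. Casp6, an executioner caspase, rose in quiescent cells by 0.92 (SE 0.15, adjusted p = 0.0091, limma) in thymocytes and 1.01 (SE 0.15, adjusted p = 0.0068) in pre-B cells. Cycs, the cytochrome c released through BAX and BAK1 pores, fell by 0.58 (SE 0.13, adjusted p = 0.019) in thymocytes and by 0.78 (SE 0.13, adjusted p = 0.0086) in pre-B cells. Between lineages 11 of the 14 passed, 5 higher and 6 lower in thymocytes (63.8% of all genes, 30.8% higher and 33% lower), with Casp8, which cleaves BID, at -1.34 (adjusted p = 3.5e-04).

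Of 8 inhibitors of apoptosis 7 were found and 6 tested, and 3 rose in quiescent thymocytes and 2 in small pre-B cells, none falling (medians 0.44 against 0.06 and 0.32 against 0.04). Of all genes 25.2% rose and 19.7% fell in thymocytes, and 25.6% rose and 21.8% fell in pre-B cells. Birc3 rose by 1.34 (SE 0.12, adjusted p = 0.0062, limma) in thymocytes and 2.06 (SE 0.12, adjusted p = 0.0018) in pre-B cells. Of 8 genes of death receptors and adaptors 7 were tested, and 3 passed between states in thymocytes (2 higher, 1 lower, median -0.03 against 0.06; 44.9% of all genes) and 0 in pre-B cells (median -0.05 against 0.04; 47.4% of all genes). Fas stood at 27.5 to 62.4 FPKM in thymocytes and 0.73 to 1.37 FPKM in pre-B cells, a lineage difference of 4.38 (SE 0.23, adjusted p = 1.3e-04).

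Of 25 genes that act on BCL2 family transcripts or proteins, 11 passed between states in thymocytes (9 higher, 2 lower, median 0.31 against 0.06) and 14 in pre-B cells (12 higher, 2 lower, median 0.29 against 0.04). Of all genes 44.9% passed in thymocytes (25.2% higher) and 47.4% in pre-B cells (25.6% higher). Zfp36, an RNA-binding protein that destabilises transcripts, rose by 0.94 (SE 0.14, adjusted p = 0.008, limma) and 1.58 (SE 0.14, adjusted p = 0.0027), and Pim2, a kinase that phosphorylates BAD, by 0.59 (SE 0.18, adjusted p = 0.043) and 2.30 (SE 0.18, adjusted p = 0.0025). Foxo1, a forkhead factor of lymphoid progenitors, rose in small pre-B cells by 1.28 (SE 0.17, adjusted p = 0.0053) and differed by 0.34 (adjusted p = 0.16) in thymocytes. Foxo3, a forkhead factor known to activate Bcl2l11 and named here after its values were seen, was higher in thymocytes than in pre-B cells by 2.15 (SE 0.12, adjusted p = 1.7e-04). In control and CKO granulocytes Foxo3 stood at 44.0 and 44.3 FPKM, against 34.1 and 44.2 FPKM in cycling thymocytes. Granulocyte Bcl2l11 was at 11.8 and 10.2 FPKM, and a part of Foxo3 in the level of Bcl2l11 was not tested. Foxo1 differed between the lineages by -0.59 (SE 0.23, adjusted p = 0.067). Il7r, the receptor through which interleukin 7 sustains pre-B cells, lay at 0.379 to 0.867 FPKM in thymocytes and 77.0 to 140.4 FPKM in pre-B cells. It passed the filter only through pre-B cells, so its lineage call had to come out lower. Between lineages 13 of the 25 passed, 10 higher and 3 lower, against 63.8% of all genes (30.8% higher, 33% lower). No gene of any of these 5 lists passed between genotypes, where 0.036% of all genes did over the lymphoid and 0.0512% over all populations.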

How the data were processed

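RNA was measured by RNA-seq in 10 libraries, 1 per population and genotype. Cells were stained for surface markers and with dyes that bind nucleic acids, and total RNA was extracted, per the labels' protocols. The submitters' processing notes name TopHat2 2.0.8b, Cuffdiff 2.1.1 and genome build mm10. The values the authors deposited were read as FPKM, a unit inferred from Cuffdiff and the values. The annotation and strand setting are not given in the sources used here.

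Of 23179 rows per library, 22923 symbols were kept, and an exact 0 is described as listed at 0. Tests were made with limma-trend (limma 3.58.1 in R 4.3.3) on log2(FPKM + 1), a scale that understates changes of low genes. Genes with at least 1 FPKM in 2 fitted libraries were tested, with Benjamini-Hochberg adjustment over all of them and a threshold of 0.05. The models were also run on simulated data with independent noise between libraries, which does not give their error rate on these libraries. State was fitted per lineage with a block for lineage and genotype, lineage with a block for state and genotype, and genotype with a block for population. Libraries of 1 genotype came from 1 pool of 2 mice. Alternatives were pseudocounts of 0.1 and 5, no filter or 5 FPKM, other blocks, leaving out pairs, and rescaling each library by its median ratio.

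The members and lists were chosen with earlier results of these data known. The text names all 10 members, and from each list the 3 genes with the highest mean and up to 3 called genes with the largest rise and fall per test. Some of these genes are counted in their lists but not reported here by name.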

Additional observations from a re-analysis of the deposited data

Results flagged for a closer look

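For 9 of 67 genes of the members and lists, the difference between quiescent and cycling cells was not the same in thymocytes as in pre-B cells, by a contrast of the limma fit with an adjusted p under 0.05, against 6.84% of all genes tested. With no filter 0 genes were called for this contrast, and with a block per lineage only 14. Values are the effect in thymocytes minus that in pre-B cells on the log2(FPKM + 1) scale. Among the members these were Bcl2, at 1.08 (adjusted p = 0.048), and Bmf, at -2.05 (adjusted p = 0.018). Bok differed by 1.97 (adjusted p = 0.021), where it fell in pre-B cells by 2.08 and lay at 0 to 0.16 FPKM in thymocytes, so that its value restates the fall in pre-B cells. Endog, a mitochondrial nuclease, differed by 1.26 (adjusted p = 0.04) and Ripk1, an adaptor kinase of death receptors, by 0.85 (adjusted p = 0.047). Lower in thymocytes than in pre-B cells by this measure were Il7r at -0.94 (adjusted p = 0.035), although it lay under 1 FPKM in every thymocyte library, the kinases Pim1 at -1.23 (adjusted p = 0.04) and Pim2 at -1.71 (adjusted p = 0.029), and Ddit3, which codes for the stress factor CHOP, at -0.95 (adjusted p = 0.042). Groups of 1 or 2 libraries are too small to look for single libraries that stand apart.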

How the results depend on the processing

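No called difference of a member changed sign under any alternative. In pre-B cells 3 members were called with a block per lineage only, without Bcl2, Bcl2l11 and Bid. The difference between lineages in the state effect was not stable: against 761 genes, 361 were called with a pseudocount of 0.1, 0 with no filter and 14 with a block per lineage only. Against 2 members, 1 was called with a pseudocount of 0.1, after rescaling, and with a filter of 5 FPKM, under which Bcl2 was not tested. With no filter or a block per lineage only, 0 members were called. The state effect by genotype had 0 genes with no filter. The lymphoid genotype comparison had 10 genes with a pseudocount of 0.1, 2 with a pseudocount of 5, 0 with no filter and 2 without the population block, and that over all populations 2 with a pseudocount of 5 and 1 with no filter. The cause was not tested. Rescaling turned the sign of 2 uncalled values, Bik between pre-B stages to -0.004 and Bid in the state effect by genotype to 0.03. Ratios of low genes crossed 2-fold for Bik in quiescent thymocytes (0.53 with a pseudocount of 5) and Bcl2 in small pre-B cells (1.10 with a pseudocount of 0.1).

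Leaving out 1 pair at a time gave 4 to 3795 genes and 0 to 5 members for thymocyte state, 3 to 4972 genes and 0 to 6 members for pre-B state, 0 to 359 genes and 0 to 1 members for their difference, 0 to 1 genes for the lymphoid genotype comparison and 1 to 4 for that over all populations. Uncalled values changed sign over these ranges: for state, Bik -0.39 to 0.24 in thymocytes and -0.10 to 0.12 in pre-B cells, Bax -0.22 to 0.15 in pre-B cells, and Bik -0.39 to 0.23 for the difference; for lineage, Bcl2l1 -0.20 to 0.01 and Bid -0.17 to 0.12; for genotype in lymphoid cells, Bcl2 -0.31 to 0.06, Bmf -0.16 to 0.08 and Bid -0.19 to 0.10, and in all cells, Bcl2 -0.24 to 0.04, Bmf -0.08 to 0.10, Bad -0.02 to 0.04 and Bid -0.16 to 0.05. The state effect by genotype left no degrees of freedom for this. The pairs are libraries of the same lineage, state, population or genotype, and no block for replicate numbers could be fitted, since the labels give none. Depth is unknown, so the precision of low values such as those of Bcl2 and Bik cannot be given.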

Other observations

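Granulocytes also differed from lymphoid cells in the inhibitors of apoptosis, of which 5 of the 7 tested were higher and 0 lower, where 41.3% of all genes were higher and 39.5% lower. Naip2 lay at 57.1 and 52.6 FPKM in control and CKO granulocytes and at 0.01 to 1.90 FPKM in lymphoid libraries, so it passed the filter on low values through granulocytes and had to be higher. The Naip genes are near-identical copies that can share reads. Cflar, an inhibitor of caspase-8 activation, was higher in granulocytes as well, at 56.7 and 54.8 FPKM against 9.26 to 14.3 FPKM (adjusted p = 8.2e-07, limma). Casp9 was higher by 1.94 (adjusted p = 6.9e-05), and Casp6 was lower by a difference of -2.07 (adjusted p = 1.2e-05). The Bcl2a1 genes, near-identical copies as well, lay at 2.72 FPKM or less in every library.

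The genes whose levels ran most like those of a member over the 8 lymphoid libraries, among 7530 genes and by Pearson's r of log2(FPKM + 1), were Nr3c1, Mul1 and Per1 for Bcl2l11 (0.998 each), Zbp1 (0.995), Slu7 and Dyrk1b (0.994 each) for Mcl1, Svil, Nit1 (0.987 each) and Mbnl1 (0.976) for Bcl2l1, Med13 (0.978), Tmub2 (0.973) and Mob4 (0.972) for Bmf, Rtf1 (0.988), Bap1 (0.979) and Chchd7 (0.969) for Bax, and Parp1, Zbtb12 (0.989 each) and Elovl6 (0.988) for Bak1. For Bid they were Drosha (0.987), Rpusd1 (0.968) and Cpsf3l (0.967), and for Bad Slmap (0.954), Copb2 (0.951) and Lamp1 (0.924). These values describe libraries that share lineage, state and mice.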
